A study of Mus musculus with 16 samples.

Results

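The immediate early genes Egr1, Fos, Jun, Junb, Atf3, Nr4a1, Myc, Btg2, Ier2 and Ier5 were followed in the left ventricle of mice with pressure overload. Probe sets were taken when the platform annotation gave them exactly 1 symbol and that symbol was one of the 10 names. All 10 genes were found, of 12393 named on the array, on 14 of the 22626 probe sets that are not array controls. The animals were C57BL/6J mice, 12 to 14 weeks old, and total RNA was taken from the left ventricle with TRIzol 14 days after the operation, 1 animal for each of 16 arrays. The 4 groups of 4 arrays were male mice with transverse aortic constriction (male TAC, numbered 1, 2, 4 and 5 in the sample titles), sham-operated males (male sham, 1 to 4), females with TAC (female TAC, 1, 2, 3 and 5) and sham-operated females (female sham, 1 to 4). TAC narrows the aortic arch and makes the left ventricle pump against a higher pressure. The labels give ketamine with isoflurane as the anaesthetic of the TAC mice and buprenorphine as the analgesic of both TAC and sham mice. The series was made to compare the response to pressure overload in the sexes.

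Immediate early genes are transcribed soon after a cell is stimulated, by factors already present in it such as serum response factor and CREB, and need no new protein for this. Most of their transcripts are unstable, so a rise is usually brief. Many of their products are transcription factors that switch on a second set of genes, and in the heart they are known to rise early after mechanical load. Egr1 is a zinc finger transcription factor. Fos, Jun and Junb are subunits of the transcription factor AP-1, and Atf3 is a stress-induced relative of CREB. Nr4a1 is an orphan nuclear receptor, and Myc is a growth-promoting transcription factor. Btg2 is an antiproliferative protein that recruits the enzymes that shorten mRNA tails, Ier2 is a nuclear protein, and Ier5 is a regulator of the heat shock factor.

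Promoter sequences from RefSeq (GRCm38.p6) were matched by gene symbol for 7 of the 10 genes. Those of Fos, Btg2, Nr4a1 and Junb are printed because, of these 7, they stood furthest from their group on 1 array, male TAC 5. Egr1, which stood further than 3 of them, is not among the 7. Each line holds the 250 bases before the start site that the table uses, read 5′ to 3′ on the strand of the gene, and position -1 is the base before the start. Capitals mark the CREB element TGACGTCA and its half-site TGACG on either strand. The full element contains the half-site on both strands.
Fos, chr12:85473640-85473889, plus strand: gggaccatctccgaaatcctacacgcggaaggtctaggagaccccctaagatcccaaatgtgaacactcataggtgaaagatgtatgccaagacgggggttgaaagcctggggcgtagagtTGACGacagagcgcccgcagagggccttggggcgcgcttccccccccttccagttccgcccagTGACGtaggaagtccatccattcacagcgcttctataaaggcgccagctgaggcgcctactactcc
Btg2, chr1:134079156-134079405, minus strand: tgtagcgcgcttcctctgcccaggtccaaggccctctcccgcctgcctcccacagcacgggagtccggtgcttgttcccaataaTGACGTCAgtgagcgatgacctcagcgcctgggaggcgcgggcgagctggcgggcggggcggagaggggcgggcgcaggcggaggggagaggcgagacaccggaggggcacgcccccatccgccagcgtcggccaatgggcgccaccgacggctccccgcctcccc
Nr4a1, chr15:101266596-101266845, plus strand: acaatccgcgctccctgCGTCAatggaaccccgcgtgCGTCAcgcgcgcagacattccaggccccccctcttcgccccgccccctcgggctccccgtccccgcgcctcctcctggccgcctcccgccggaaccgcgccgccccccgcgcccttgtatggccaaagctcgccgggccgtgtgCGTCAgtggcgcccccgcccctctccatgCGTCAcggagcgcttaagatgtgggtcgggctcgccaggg
Junb, chr8:84978749-84978998, minus strand: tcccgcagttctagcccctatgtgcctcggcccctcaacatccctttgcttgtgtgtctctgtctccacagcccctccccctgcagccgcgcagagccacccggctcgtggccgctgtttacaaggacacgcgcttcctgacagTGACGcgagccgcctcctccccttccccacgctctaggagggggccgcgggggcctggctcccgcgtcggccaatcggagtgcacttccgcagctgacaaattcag

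The full CREB element TGACGTCA lay in 1 of the 7 promoters, at -166 to -159 of Btg2, and in 1.55% of all 32851 promoters of the same length. The half-site lay in 5 of the 7 (Btg2, Atf3, Junb, Fos and Nr4a1), against 17.8% of all. Nr4a1 held 4 copies, the nearest to the start at -40 to -36, and Fos held 2, the nearer at -66 to -62. The Egr1 family motif GCGNGGGCG was found in Btg2 and Nr4a1 (4.7% of all promoters), and TATAAA at -33 to -28 of Fos (12.4% of all). The GC box GGGCGG was in 6 of the 7, against 32.7% of all. Neither the AP-1 motif TGANTCA (6.75% of all) nor a CArG box, the element of serum response factor (1.47% of all), was found in the 7 windows. All motifs were searched on both strands. A match describes the letters and does not make them a binding site, and a missing match says only that these letters are not in these windows. The start of Nr4a1 in the table lies inside the annotated gene, which spans chr15:101253902-101274795.

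Signals are the deposited GCOS intensities on a linear scale, already scaled so that the trimmed mean lay between 500.21 and 500.25 on all arrays, and no detection call was used. Differences were tested on log2(signal + 16) with limma, over the 13576 probe sets that remained after the dimmest 40% had been left out, the limit lying at a signal of 130.8. Of the 14 probe sets, 11 passed that limit, for 9 genes. Myc (1424942_a_at) and the Ier5 probe sets 1460009_at and 1417613_at lay below it. The 10 markers of ventricular cardiomyocytes had signals between 5521.8 and 64395 on every array. In this bulk RNA, fewer cells of a type and less RNA per cell cannot be told apart.

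An 18S rRNA control and the Gapdh 3′ to 5′ ratio, 2 measures of RNA and labelling quality, were compared between the operations. TAC and sham did not overlap in the Gapdh ratio in either sex, nor in 18S in females. The log2 signal of 18S was 9.107 to 13.16 in male TAC and 12.65 to 13.82 in male sham (exact permutation p = 0.0571, 2-sided), and 9.347 to 10.74 in female TAC against 10.75 to 12.8 in female sham (exact permutation p = 0.0286, the smallest that 4 against 4 arrays allow). The Gapdh ratio was 1.004 to 1.164 in male TAC against 0.8366 to 0.9207 in male sham, and 0.9578 to 1.026 in female TAC against 0.7854 to 0.9182 in female sham (exact permutation p = 0.0286 in each sex). Fits with either measure as a covariate are given with the counts they change.

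In males, 7 of the 11 probe sets rose with TAC and 0 fell, against 8.07% of all 13576 probe sets that rose. They belong to Egr1, Jun (both probe sets), Btg2 (both), Ier2 and Ier5. In females 4 of the 11 rose and 0 fell, those of Atf3, Jun, Btg2 and Ier5, against 6.46% of all. All 11 differences were above 0 in both sexes, with a median of 1.08 in males and 0.822 in females on the log2 scale, while the median over all probe sets was -0.0319 and -0.0309. Averaged over the sexes, 8 of the 11 rose (12.9% of all rose), all but Fos, Junb and Nr4a1. The male TAC and male sham values did not overlap for 6 of the 11 (8.75% of all were higher without overlap), nor did the female TAC and female sham values for 4 of the 11 (8.29%).

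Markers of several cell types differed between the operations on the same arrays. Of 7 macrophage markers, 5 rose in males and 2 in females, against 8.07% and 6.46% of all probe sets that rose. The median difference of these markers was 0.74 in males and 0.418 in females on the log2 scale. Their summed level, relative to the 16-array mean, was 0.226 to 0.431 in male TAC against -0.429 to 0.0701 in male sham, and 0.0218 to 0.401 in female TAC against -0.295 to -0.155 in female sham. Of 6 fibroblast markers, 3 rose in males and 2 in females, against the same shares of all, with medians of 0.604 and -0.162. Of 5 markers of smooth muscle and pericytes, 2 rose in males (8.07% of all rose) and 1 fell in females (8.6% of all fell). Of the 10 ventricular cardiomyocyte markers, 5 fell in males and 7 in females, where 1 rose, against 9.77% and 8.6% of all probe sets that fell. The medians of these 10 were -0.299 and -0.353. The 7 endothelial markers had medians of -0.0638 in males and -0.107 in females. Of 3 atrial cardiomyocyte markers only Myl4 passed the signal limit. Myl4 rose by 1.28 in males (adjusted p = 0.0109) and by 1.10 in females (adjusted p = 0.0307), against the same shares of all that rose. Without male TAC 5 the male difference of Myl4 was 1.06 (adjusted p = 0.0415). With male TAC 5 left out, the male counts were 5 macrophage, 4 fibroblast and 1 smooth muscle and pericyte markers that rose, and 5 ventricular markers that fell. Of all probe sets, 6.96% rose and 9.17% fell in males in that fit. The part of these cell types in the differences of the immediate early genes was not tested.

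The mean level of the 10 genes on each array was taken as the mean of log2(signal + 16) relative to the 16-array mean, with the probe set of highest mean for each gene. It was 0.0943, 0.244, -0.0364 and 1.93 on male TAC 1, 2, 4 and 5, and -0.745 to -0.511 on the male sham arrays. It was 0.199 to 0.641 in female TAC and -0.905 to -0.0389 in female sham. Every TAC array lay above every sham array, though male TAC 4 was only just above female sham 4. Male TAC 5 lay 1.83 above the mean of the other 3 male TAC arrays, whose SD was 0.14. The 18S signal separated the same array from its group, with 13.16 on male TAC 5 and 9.107 to 9.566 on male TAC 1, 2 and 4, so that male TAC 5 lay among the male shams.

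**Figure D1:**
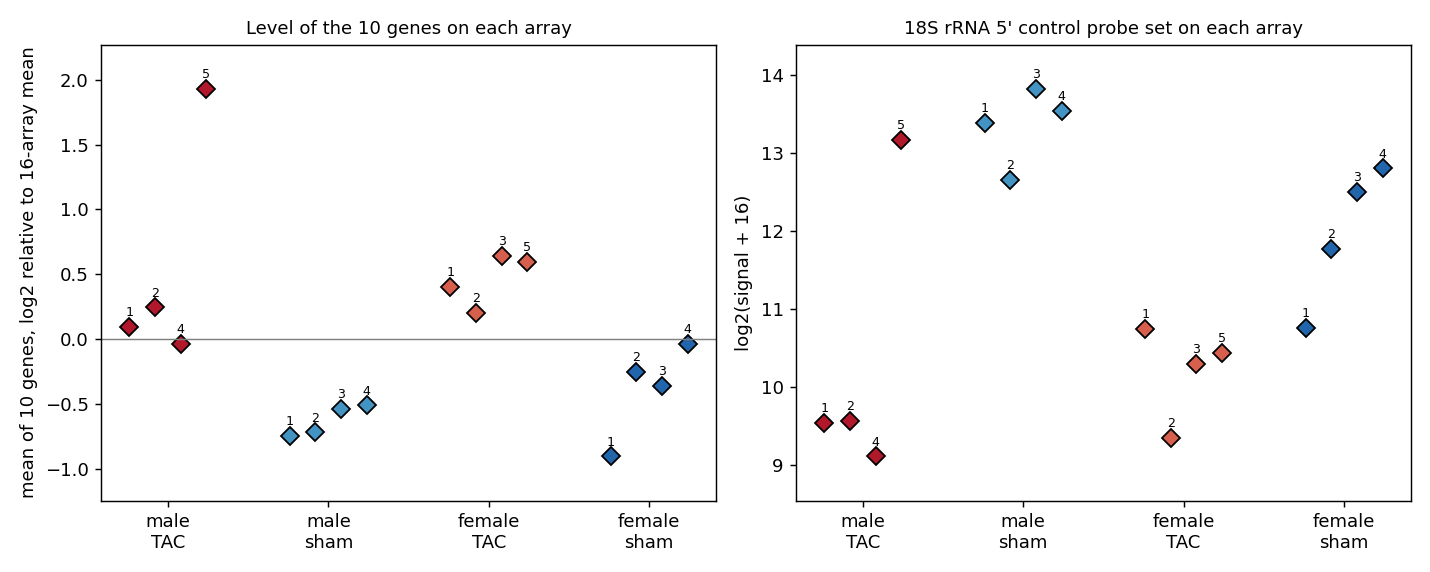
Mean level of the 10 genes on each array (left, log2 relative to the 16-array mean) and the log2 signal of the 18S rRNA control (right), by group; the small numbers are the replicate numbers of the titles. Male TAC 5 is at 1.93 on the left, above the 15 other arrays, and at 13.16 on the right, apart from the other male TAC arrays.

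Egr1 was the member with the largest male difference. Its signal was 1637.7, 1214.5, 589.6 and 10127.7 on male TAC 1, 2, 4 and 5, against 322.2, 426.1, 323.7 and 326.8 on male sham 1 to 4. It was 815.1, 1033.4, 1200.9 and 1804.7 in female TAC, against 423, 838.9, 590.7 and 304.5 in female sham. All male TAC arrays were above all male shams, and the female groups overlapped only through female sham 2, which exceeded female TAC 1. Egr1 rose by 2.37 ± 0.53 (SE) on the log2 scale in males, or 5.18-fold (limma, adjusted p = 0.00379). The female difference of 1.18 ± 0.53, or 2.27-fold, was not called (adjusted p = 0.151). Both used a spread shared by the 4 groups, to which male TAC 5 contributed. Without that array the male difference was 1.56 (adjusted p = 0.00254), and the female difference of 1.18 passed the threshold (adjusted p = 0.0109).

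Fos, the AP-1 subunit whose transcript is among the shortest lived, was high on 1 array. Its signal was 430.5, 233.1, 183.4 and 4965.3 on male TAC 1, 2, 4 and 5, against 219.3, 160.6, 126.4 and 154.4 in male sham. It was 256.6, 199.5, 670.1 and 524.9 in female TAC, against 96.3, 275, 302.6 and 211.7 in female sham. Outside male TAC 5, TAC and sham arrays overlapped in both sexes. Neither the male difference of 1.69 ± 0.67 (adjusted p = 0.091) nor the female difference of 0.80 ± 0.67 (adjusted p = 0.481) was called. Without male TAC 5 the male difference was 0.66 (adjusted p = 0.31). It was called without male TAC 4 (2.20, adjusted p = 0.0321), the lowest of that group.

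On male TAC 5, Jun, the main partner of Fos in AP-1, was not far above the other male TAC arrays. On 1448694_at its signal was 1222.9, 1412.6, 1907.4 and 1965.4 in male TAC, against 1184, 825.9, 1129.5 and 799.4 in male sham. It was 1770, 1289.5, 1526.3 and 1773.4 in female TAC, against 931.6, 1154, 1199.9 and 1142.1 in female sham. TAC and sham did not overlap in either sex, and male TAC 5 was at the level of male TAC 4. Jun rose by 0.71 in males (adjusted p = 0.00587) and by 0.51 in females (adjusted p = 0.0462). The female call held in 16 of 29 alternative analyses, with differences of 0.43 to 0.83 and limma adjusted p of 0.0129 to 0.134. The second probe set, 1417409_at, rose by 1.22 in males (adjusted p = 0.00493). There male TAC 4 at 1942.2 exceeded male TAC 5 at 1635.2, and its female difference of 0.82 missed the threshold (adjusted p = 0.0558). The female groups overlapped on it, with female TAC 3 at 1183.5 below female sham 3 and 4 at 1213.2 and 1324.9. The 2 probe sets correlated at r = 0.828 over the 16 arrays.

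Junb, an AP-1 subunit that can restrain Jun, had signals of 298.4, 470, 277.4 and 1534.2 in male TAC, against 175.3, 246.3, 255.8 and 447.9 in male sham. Its signals were 268.3, 254.1, 414.6 and 570.9 in female TAC, against 37.7, 78.8, 315.8 and 430.9 in female sham. Groups overlapped in both sexes, with male TAC 5 above and 2 female shams below the rest. The differences were 0.86 in males (adjusted p = 0.327) and 1.17 in females (adjusted p = 0.179), and neither was called. Without male TAC 5 the male difference was 0.33 (adjusted p = 0.736).

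Atf3, which is induced by many kinds of stress, had its highest levels in female TAC. Its signals there were 636.3, 418.8, 573.6 and 372.7, against 116.7, 158.4, 75 and 231.2 in female sham. They were 174.5, 229.8, 102.9 and 371.1 in male TAC, against 176.6, 65.1, 236.7 and 79.6 in male sham. The female groups were apart and the male groups overlapped, with male TAC 5 just below the lowest female TAC array. Atf3 rose 3.34-fold in females (1.74 ± 0.40, adjusted p = 0.00478), and the male difference was 0.63 ± 0.40 (adjusted p = 0.308). All 4 female TAC values lay above all 4 male TAC values (1.68% of all probe sets did so), but neither this difference of 1.23 (adjusted p = 0.641) nor the female minus male response of 1.11 ± 0.56 (adjusted p = 0.769) was called.

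Nr4a1 had signals of 621.9, 1248.7, 796.6 and 4391.8 in male TAC, against 617.7, 750.8, 709.7 and 875.2 in male sham. It had 864.8, 795.8, 1742.2 and 995.8 in female TAC, against 352.2, 1086.5, 1476.4 and 1589.8 in female sham. Apart from male TAC 5 the groups overlapped almost fully, and female sham 1 was the lowest of the 16 arrays. The differences were 0.80 in males (adjusted p = 0.272) and 0.10 in females (adjusted p = 0.924). They were 0.21 in males without male TAC 5 and -0.38 in females without female sham 1. Myc lay below the signal limit, at 77.2 to 109.5 in male TAC against 28.2 to 165.7 in male sham and at 67.8 to 201.1 in female TAC against 18.1 to 130.8 in female sham. Fitted with the limit lifted, Myc differed by 0.34 in males (adjusted p = 0.79) and 0.46 in females (adjusted p = 0.697). Male TAC 5, with a Myc signal of 109.5, ranked ninth of the 16 arrays.

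Btg2 separated TAC from sham with and without male TAC 5. On 1416250_at its signal was 1176.6, 1328.2, 1631.8 and 6377.4 in male TAC, against 611.3, 590.1, 302.7 and 602.6 in male sham. It was 1611.2, 1348.8, 1738.2 and 2210.3 in female TAC, against 482.8, 869.1, 779.8 and 872.6 in female sham. No TAC array fell within the sham range in either sex. Btg2 rose 3.87-fold in males (1.95 ± 0.37, adjusted p = 0.00103) and 2.30-fold in females (1.20 ± 0.37, adjusted p = 0.0348), and by 1.40 in males without male TAC 5 (adjusted p = 0.000506). The second probe set, 1448272_at, rose by 0.97 in males (adjusted p = 0.00405). It differed by 0.13 in females (adjusted p = 0.76), where TAC signals of 865 to 1022.4 lay inside the sham range of 622.3 to 1025.3, so the 2 probe sets disagreed there.

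Ier2 had signals of 627.2, 642.7, 412.8 and 1900.6 in male TAC, against 300.2, 454.4, 355.4 and 300.6 in male sham. Its signals were 350.8 to 655.5 in female TAC and 392.9 to 437.1 in female sham. Male TAC 4 was below male sham 2, and the female TAC arrays lay on both sides of the shams. Ier2 rose by 1.08 in males (adjusted p = 0.0189), and by 0.64 without male TAC 5 (adjusted p = 0.0474), but was not called without male sham 4 (adjusted p = 0.0515). The female difference was 0.25 (adjusted p = 0.654).

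Ier5 rose in both sexes. On 1417612_at its signal was 554.6, 547, 1027.7 and 1193.5 in male TAC, against 201.4, 289.6, 345.3 and 303.6 in male sham. It was 1797.5, 918.8, 769.7 and 864.8 in female TAC, against 363.9, 414.4, 460.4 and 753.6 in female sham. The male groups were well apart, and the female groups were parted by the narrow gap between female TAC 3 and female sham 4. Ier5 rose 2.70-fold in males (1.43 ± 0.29, adjusted p = 0.00154) and 2.10-fold in females (1.07 ± 0.29, adjusted p = 0.0145). The 2 dim probe sets of Ier5 differed by 0.26 and 0.38 in males and by 0.95 and 0.76 in females, with no call.

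**Figure D2:**
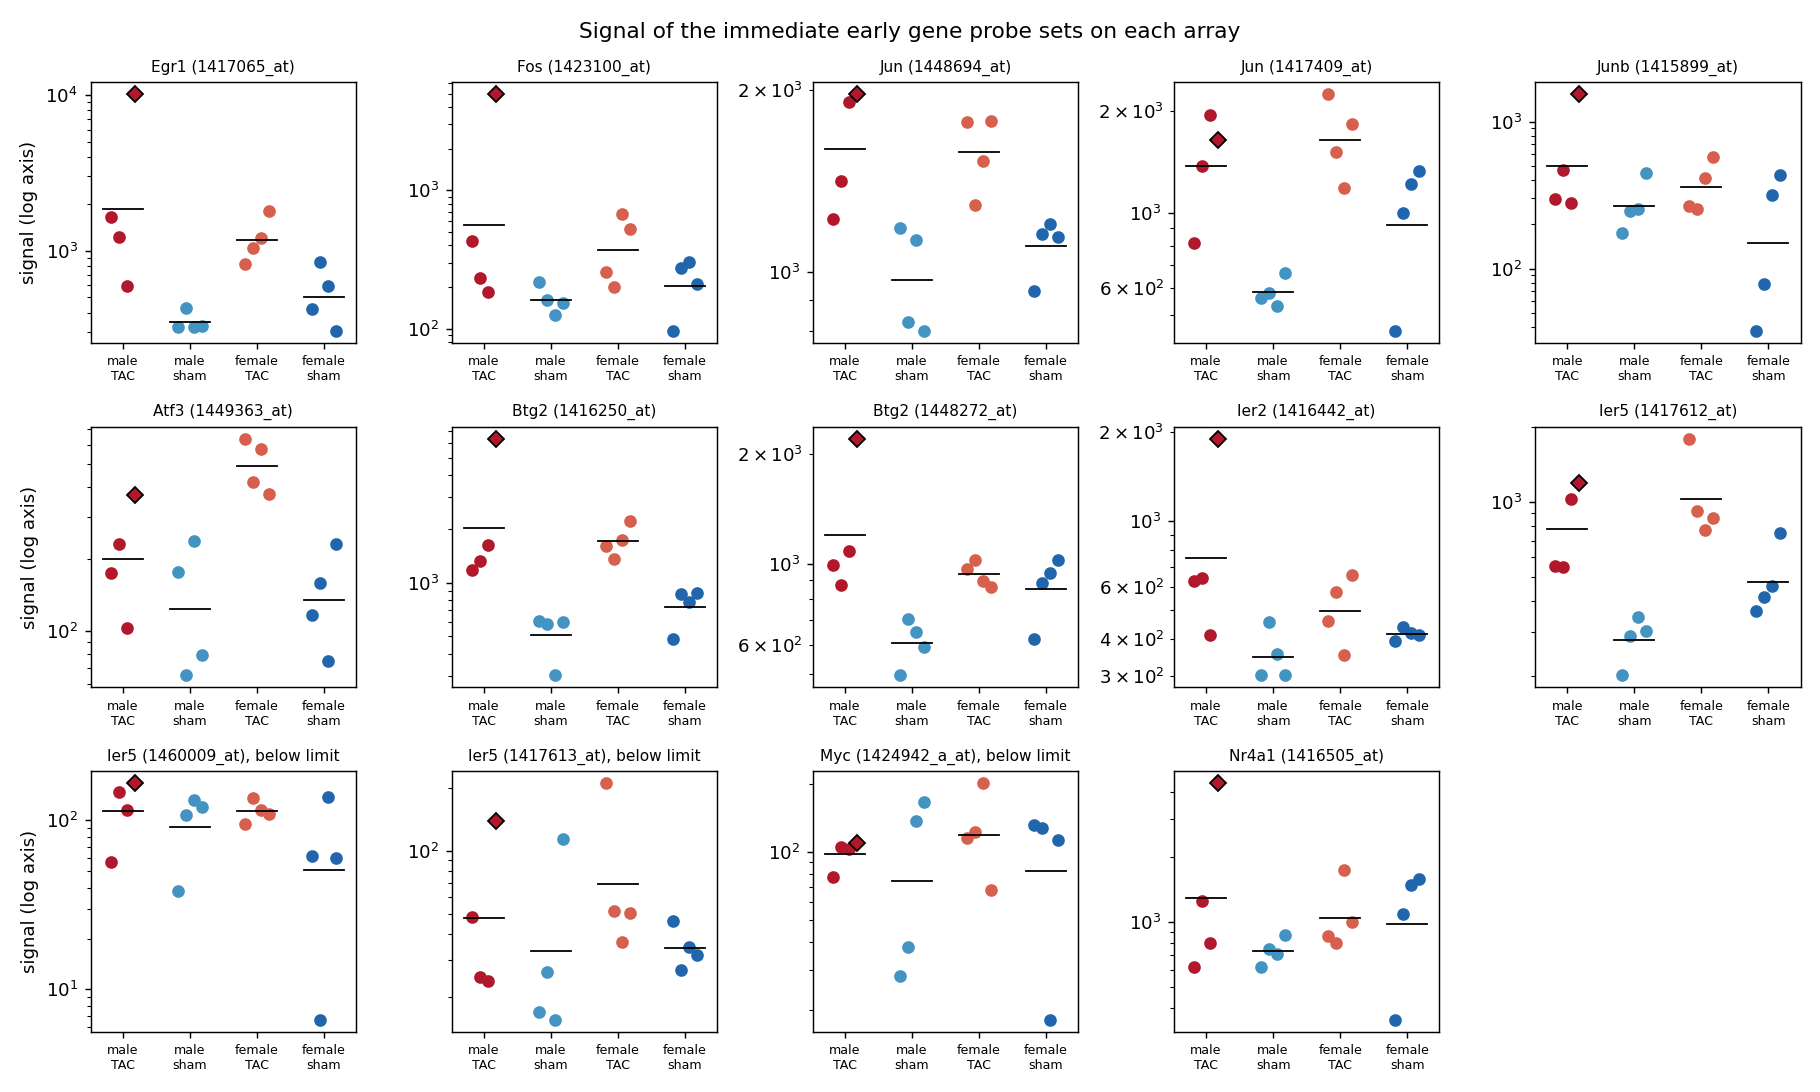
Signal (log axis) of all 14 probe sets on each of the 16 arrays, by group, with the line at the group mean of log2(signal + 16); the diamond is male TAC 5. It is the highest array for Egr1, Fos, Jun (1448694_at), Junb, Btg2, Ier2, Ier5 (1460009_at) and Nr4a1, while Atf3 is highest in the 4 female TAC arrays.

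The male calls were the same without male TAC 5 and smaller in size. Without it the same 7 probe sets were called in males (6.96% of all rose), with a median over the 11 of 0.657 in place of 1.08, and the female count was 5 (6.71% of all rose). With the Gapdh ratio as a covariate only Jun (1448694_at) and Ier5 remained called in males, while the count over all probe sets fell to 331, against 2422 without the covariate. The 5 probe sets that lost their call kept their direction, and their errors grew. Btg2 was at 2.16 ± 0.70 with the covariate and 1.95 ± 0.37 without it on 1416250_at, and at 0.97 ± 0.41 and 0.97 ± 0.22 on 1448272_at. Jun (1417409_at) was at 1.02 ± 0.53 and 1.22 ± 0.28, Ier2 at 0.83 ± 0.58 and 1.08 ± 0.31, and Egr1 at 1.88 and 2.37. With the 18S signal as a covariate on all arrays, 10 of the 11 were called in males and 9 in females, Fos, Junb and Nr4a1 among them in both, where male TAC 5 is the 1 male TAC array at the 18S level of the shams. With the same covariate and male TAC 5 left out, an alternative added after the data were seen, 0 of the 11 were called in males by limma (8 had an unadjusted p below 0.05), and 10 of all probe sets. There too the errors were larger. The differences were 2.03 ± 0.64 for Btg2 (1416250_at), 2.41 ± 0.74 for Ier5, 1.39 ± 0.88 for Egr1 and 0.44 ± 0.58 for Ier2. The Gapdh ratio, and 18S with male TAC 5 left out, did not overlap between TAC and sham in either sex. The part of RNA quality and that of the operation cannot be told apart in these covariate fits. The female count changed when single arrays were left out. It was 1 (Atf3) without female TAC 1, 1 (Atf3) without female sham 1, and 2 (Atf3 and Ier5) without female TAC 5. In these fits 7, 4 and 5 of the 11 had an unadjusted p below 0.05, against 6 with all arrays. Without female TAC 1, Btg2 (1416250_at) was at 1.225 (adjusted p = 0.0561) and Ier5 at 0.806 (adjusted p = 0.0583). Without female sham 1 they were at 1.004 (adjusted p = 0.112) and 0.946 (adjusted p = 0.0521). With all arrays they were at 1.199 and 1.073. Atf3 lost its female call with the Gapdh ratio as a covariate (1.95, adjusted p = 0.0588), as did Btg2 on 1416250_at (1.33, adjusted p = 0.185). Jun (1448694_at) and Ier5 remained called in females there.

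**Figure D3:**
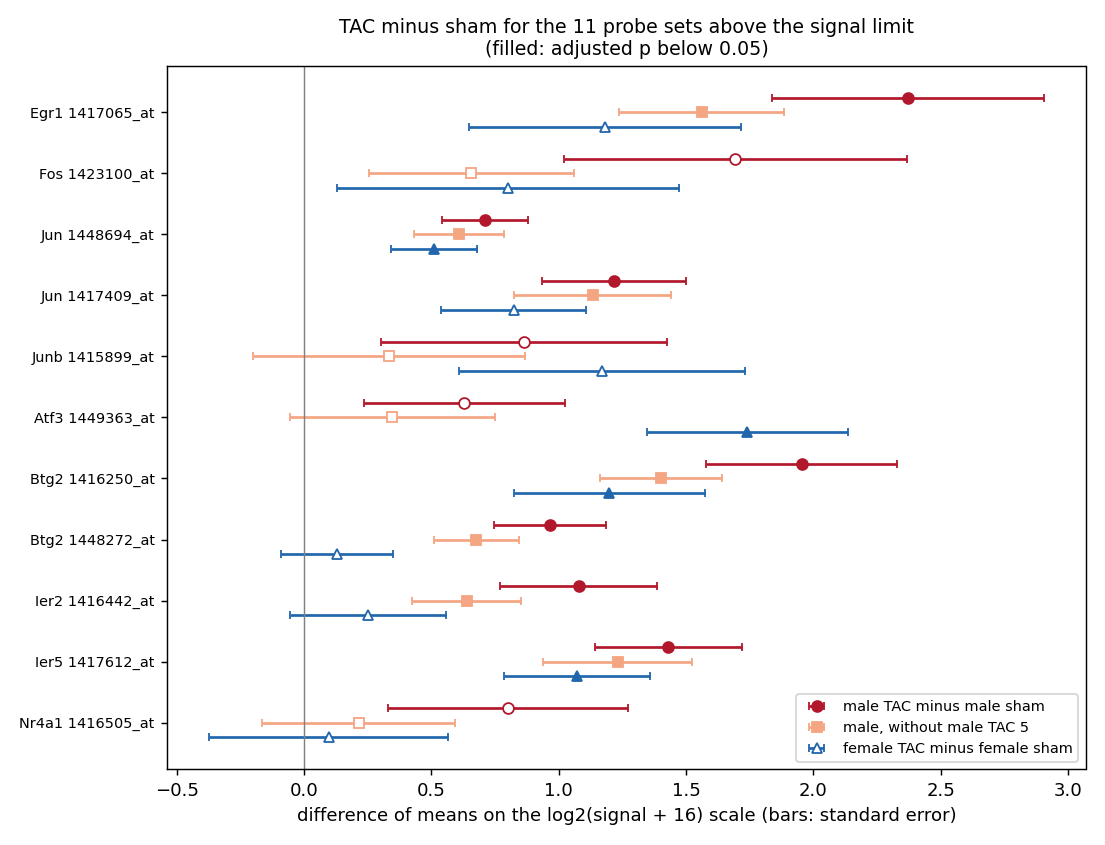
TAC minus sham on the log2(signal + 16) scale for the 11 probe sets above the signal limit, with standard errors, in males, in males without male TAC 5 and in females; filled symbols had an adjusted p below 0.05. For all 11 the male difference without male TAC 5 is smaller than with it, and for Atf3 the female difference of 1.74 is the largest of the 3.

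No sex difference was called. The female minus male response was called for 0 of the 11 by limma and for 0 of all 13576 probe sets (0%), with 1 member, Btg2 1448272_at, at an unadjusted p below 0.05 (-0.84, adjusted p = 0.664). Female TAC minus male TAC gave 0 members and 0.0663% of all, again with 1 member, Atf3, at an unadjusted p below 0.05. Female sham minus male sham gave 0 members and 0.309% of all, with 3 members at an unadjusted p below 0.05. For Ier5 the 4 female sham values lay above the 4 male sham values (3.59% of all probe sets did so), with a difference of 0.74 (adjusted p = 0.354).

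Male TAC 5 was known from earlier results of these data to stand apart for these genes, so the counts on it are a description. It was the highest of the 16 arrays for 7 of the 10 genes on their main probe set, namely Egr1, Fos, Jun, Junb, Btg2, Ier2 and Nr4a1, against 4.38% of all probe sets. It was 17.7-fold above the mean of the other male TAC arrays for Fos, 9.46-fold for Egr1, 5.07-fold for Nr4a1, 4.62-fold for Btg2, 4.36-fold for Junb and 3.38-fold for Ier2. The corresponding values were 2.18-fold for Atf3, 1.74-fold for Ier5, 1.32-fold for Jun and 1.14-fold for Myc. Over all probe sets 1.52% were more than 2-fold and 0.192% more than 4-fold above, against 8 and 5 of the 11 members. Fos was the furthest of all 13576 probe sets and Egr1 the third. Over the whole array its mean correlation with its group was 0.935, the same as that of male TAC 4, against 0.934 to 0.954 for the other arrays. Its share of probe sets more than 2-fold below the rest of its group, 3.37%, was the largest of the 16 arrays (0.796% to 2.81% on the others), and its array weight in limma, 0.698, was the lowest (0.714 to 1.39 on the others).

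**Figure D4:**
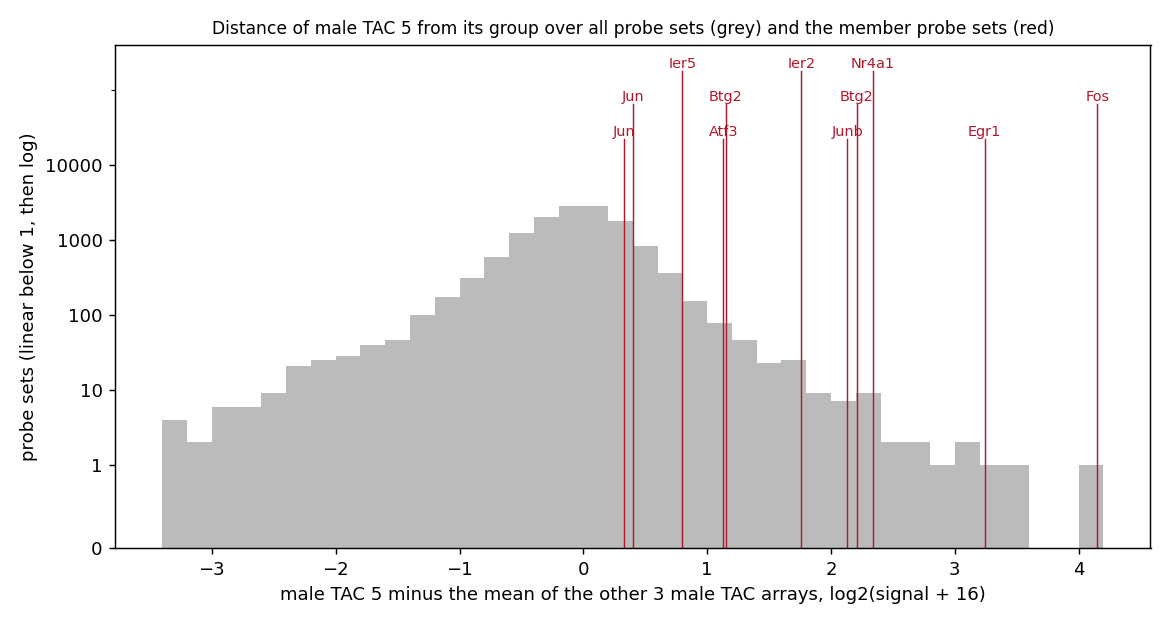
Histogram of all 13576 probe sets by the distance of male TAC 5 from the mean of the other 3 male TAC arrays (log2, linear count axis below 1 and log above); the red lines mark the 11 member probe sets. Both Jun probe sets lie inside the bulk of the distribution, and Fos, at 4.15, is the furthest probe set to the right.

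Markers of other cell types and quality measures on that array were as follows. The 3 atrial cardiomyocyte markers Myl4, Myl7 and Sln had signals of 1321.7, 748.4 and 309.7 on male TAC 5, against 603.5 to 842.5, 136.5 to 169.1 and 19.6 to 26.7 on male TAC 1, 2 and 4. They were close to as high on female TAC 1 (1303.5, 730.7 and 264.8) and female TAC 2 (1192.2, 667.7 and 164.7). The summed level of the 7 endothelial markers was -0.32 on male TAC 5 and -0.165 to 0.193 on the rest of its group, and that of the 7 macrophage markers was 0.331 and 0.226 to 0.431. The 6 fibroblast markers gave 0.519 on male TAC 5 and 0.0945 to 0.569 on the other male TAC arrays. The 10 ventricular cardiomyocyte markers gave 0.0791, above the -0.196 to -0.0792 of the rest. The lymphocyte markers gave -0.489, below -0.186 to 0.458, and the erythroid markers -0.788, below 0.0767 to 0.605, with 2 and 1 of them above the signal limit. The Gapdh ratio was 1.05, inside the range of its group. The part of these measures in the levels of the immediate early genes on male TAC 5 was not tested.

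The median correlation among the 10 genes was lower without male TAC 5 and lower with group means subtracted. As a description over 16 arrays that share these groups, the median Pearson r over the 45 pairs of genes was 0.579, and 0.425 without male TAC 5. With group means subtracted it was 0.389, and 0.0801 when male TAC 5 was left out as well. In that last case r ran from -0.668 (Egr1 with Ier5) to 0.81 (Junb with Nr4a1). There 25 of the 45 pairs were above 0 and 6 were above 0.5. The genes whose pattern was most like the mean of the 10 over the 16 arrays were Mgp (r = 0.91), an inhibitor of calcification, Atp6v1c1 (0.897), a subunit of the vacuolar proton pump, Sec61a1 (0.877), a subunit of the protein channel of the endoplasmic reticulum, and Dusp6 (0.876), a phosphatase that inactivates ERK. Arpc2 (0.87), Serf2 (0.866), Lrrfip1, Ccnd2, Ckap4 and Ppp1r3c (0.861 each) followed. Without male TAC 5 and over 15 arrays, r was 0.91 for Mgp and 0.943 for Sec61a1, while Dusp6 was at 0.785.

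Among 25 other transcription factors of the immediate early class, 17 passed the signal limit. Of these 4 rose in males (Id3, Id2, Jund and Mafk) and 3 in females (Klf4, Cebpd and Mafk), with 0 falls in either, against the 8.07% and 6.46% of all probe sets that rose, and the median difference was 0.26 in males and 0.242 in females. Id2, an inhibitor of basic helix-loop-helix factors, rose by 1.97 in males (adjusted p = 0.00439). Its signals were 206.3 to 301.3 in male TAC and 6.7 to 96.4 in male sham. All male sham values lay below the signal limit of 130.8, so the size of this rise is uncertain. Cebpd, a factor of the inflammatory response, rose by 1.29 in females (adjusted p = 0.0177). Klf4, a zinc finger factor, rose by 0.77 in females (adjusted p = 0.00993). Male TAC 5 was the highest array for 5 of the 17, Id3, Jund, Klf2, Klf4 and Klf6, against 4.38% of all probe sets. Jund was no longer called in males without it (0.49, adjusted p = 0.0693).

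Of 31 other immediate early regulators and secreted products above the limit, 6 rose in males and 3 in females, and 0 fell in either, against the 8.07% and 6.46% of all probe sets that rose, so that the female count was near the share of all, with a median difference of 0.174 in males and 0.227 in females. Ccn2, a matrix-associated growth factor, had signals of 3162.1, 6715.4, 3358.2 and 9819.7 in male TAC, against 686.7, 681.4, 681 and 883.5 in male sham. It had 2347.7, 3129.4, 12164.8 and 3445.8 in female TAC, against 821.5, 943.8, 780.6 and 729.8 in female sham. TAC and sham were far apart in both sexes, and the highest array was female TAC 3. Ccn2 rose by 2.79 in males (adjusted p = 3.42e-05) and by 2.34 in females (adjusted p = 0.000287), and Hbegf, a ligand of the EGF receptor, by 1.52 in each (adjusted p = 0.000128 in males and 0.000179 in females). The kinase Pim1 (1.19, adjusted p = 0.00165), Dusp6 (1.03, adjusted p = 0.00187) and the survival factor Mcl1 (0.50, adjusted p = 0.00921) also rose in males. The sixth male call, Ccn1, rested on male TAC 5 (1.25, adjusted p = 0.0264; without it 0.77, adjusted p = 0.0908). Errfi1, a feedback inhibitor of the EGF receptor, was the third female call (1.38, adjusted p = 0.0339). Male TAC 5 was the highest array for 12 of the 31, against 4.38% of all probe sets. Among them was Dusp1, a phosphatase of MAP kinases. Its signal was 8717.7 on male TAC 5, 2252.4 to 3175.2 on male TAC 1, 2 and 4, and 2508.6 to 3554.5 in male sham.

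Zfp36, whose protein destabilises AU-rich transcripts, was lower in the other male TAC arrays and high on male TAC 5. Its signals were 288.1, 390.1, 308.3 and 1840.6 on male TAC 1, 2, 4 and 5, against 392.4, 517.9, 626 and 552.7 in male sham. They were 604.8, 396.2, 623.1 and 651 in female TAC, against 358.3, 337.2, 538.6 and 365.3 in female sham. With all arrays the male difference was -0.02 (adjusted p = 0.975). Without male TAC 5 Zfp36 fell by 0.63 in males on the log2 scale (adjusted p = 0.0474), the 1 fall of this list in males without that array.

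The factors and kinases upstream of these genes were counted as well. Of 18 of them above the limit, 3 rose in males (Elk3, Srf and Rps6ka3) and 2 in females (Atf4 and Srf), and 0 fell, with medians of -0.0125 in males and -0.049 in females. With 8.07% and 6.46% of all probe sets rising, the female count was near the share of all. The male call of Rps6ka3, a kinase downstream of ERK, was lost without male TAC 5 (0.50, adjusted p = 0.103, against 0.59, adjusted p = 0.0369, with it). Srf, the serum response factor itself, rose by 0.67 in males (adjusted p = 0.0171) and by 0.67 in females (adjusted p = 0.0204). Elk3, a partner of Srf, rose by 0.72 in males (adjusted p = 0.00367), and Atf4, a factor of the stress response, by 0.53 in females (adjusted p = 0.0182). Averaged over the sexes 4 of the 18 rose (12.9% of all rose) and 2 fell (15.8% of all fell), the kinases Mapk9 (-0.48, adjusted p = 0.0128) and Mapk14 (-0.40, adjusted p = 0.0268). Male TAC 5 was the highest array for 0 of the 18, against 4.38% of all probe sets. Of 11 heat shock and glucocorticoid-responsive genes, 2 rose in males (Hsp90aa1 and Hspb1) and 4 in females (Hsp90aa1, Mt2, Hspb1 and Hsph1), against the same 8.07% and 6.46% of all. The male call of Hspb1, a small heat shock protein, rested on male TAC 5 (0.36, adjusted p = 0.0309; without it 0.23, adjusted p = 0.11). Hsp90aa1, a stress-inducible chaperone, rose in males (adjusted p = 0.000587) and in females, there by 1.04 on the log2 scale (adjusted p = 0.000555), and Mt2, a metallothionein, by 1.39 in females (adjusted p = 0.0013). Male TAC 5 was the highest array for 3 of these 11, against the same 4.38% of all.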

How the data were processed

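The authors deposited 1 table of signal intensities, computed with GCOS per the submitters' processing notes, for 22690 probe sets on 16 arrays. Its version and algorithm settings are not given in the sources used here. The deposited intensity values are linear and globally scaled, as tested on the values, and that scaling was kept. From these, log2(signal + 16) was computed here. The 64 control probe sets and the 40% of the others with the lowest mean were left out. Gene names are those of the platform annotation, in which 20380 had 1 symbol, 691 had several and 1555 had none.

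The tests used limma 3.58.1 (R 4.3.3). The model held the means of the 4 groups, was fitted to the 16 arrays together and let the prior variance follow signal intensity. P-values are 2-sided and were adjusted by Benjamini and Hochberg's method over the 13576 probe sets. A probe set was called where its adjusted p was under 0.05. "Rose" and "fell" refer to that threshold, and ± in such values is the standard error. Probe sets below the limit were fitted with the limit lifted. All adjusted p-values come from this model or its named alternatives. The procedure was tested on simulated data. The genes, lists, marker genes, naming rule and tests were chosen with earlier results of these data known, so counts and medians over the lists are descriptions.

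All 10 genes are named. For the lists, up to 5 called genes by smallest p were named, with list members for which male TAC 5 was the highest array. Zfp36 and Dusp1 were named after their values were seen. Likeness to the 10 genes was Pearson's r with the mean of their scaled values, over probe sets with 1 symbol, and the 10 highest are given. The labels call the 4 arrays of a group biological replicates and give no batch. The running number that ends the titles went from 1 to 16 group by group, with all TAC arrays before all sham arrays. What it counts is not stated, and it cannot be told apart from the groups. The title numbers did not pair arrays: deviations of same-numbered TAC and sham arrays correlated at -0.0302 to 0.115. No 2 arrays held identical values. The number of arrays limits the precision. Alternatives were other scalings, pseudocounts of 1 and 64, other signal limits, other variance models, only the groups compared, a replicate block, quality covariates and each array left out.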

Additional observations from a re-analysis of the deposited data

Results flagged for a closer look

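In each group of 4 arrays, the highest or lowest value was compared with its nearest neighbour, and values far from the other 3 were noted. Chance marks about 1 in 20 groups, but male TAC 5 was known beforehand to stand apart for these genes, so its marks are a description and are not set against that rate. Of 56 groups of the 14 probe sets, 13 were marked, and 7 of these 13 were male TAC 5 as the highest male TAC array. Its signals were 10127.7 for Egr1, 4965.3 for Fos, 1534.2 for Junb, 6377.4 and 2196.8 for the 2 probe sets of Btg2, 1900.6 for Ier2 and 4391.8 for Nr4a1. The mean level of the 10 genes, 1.93 on male TAC 5, stood apart in the same way. Over all probe sets, male TAC 5 stood apart above its group in this way for 1.1%.

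The other 6 marked values came from 5 arrays. Egr1 was at 426.1 on male sham 2, against 322.2 to 326.8 on the other male shams. Btg2 (1416250_at) was low on male sham 3, at 302.7 against 590.1 to 611.3. Female TAC 1 was high for Ier5, at 1797.5 on 1417612_at and 210.1 on 1417613_at. On 1417613_at the signal was also high on male sham 4, at 114.1 against 15.5 to 26.4. Myc was low on female sham 3, at 18.1 against 112.9 to 130.8 on the other female shams.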

How the results depend on the processing

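With each array left out in turn, 6 to 8 of the 11 probe sets were called in males, 1 to 5 in females and 7 to 10 averaged over the sexes. The interaction and both comparisons of the sexes gave 0 members under all alternatives run. Counts over all probe sets in the same runs were 1812 to 2493 in males, 1615 to 2127 in females, 3519 to 3824 averaged, and 0 to 11 for the interaction. The female member count was 2 with no signal limit and 2 with no intensity trend. The Gapdh ratio as a covariate left 2 member calls in males, in females and averaged, and 331, 532 and 583 calls over all probe sets. The 18S signal as a covariate gave 9 member calls in females, and 997 calls over all probe sets in males and 1917 averaged. With male TAC 5 left out as well, it gave 0 member calls in males and 1 averaged, and 10, 584 and 90 over all probe sets in males, in females and averaged. The interaction over all probe sets was called for 1 probe set with a pseudocount of 64, 2 with the dimmest 60% left out and 2 with the replicate block. The replicate block gave 7 male, 3 female and 7 averaged member calls. In the separate check of the title numbers, 3 of 16 arrays correlated best with an array of their own number. The gap of 1.83 between male TAC 5 and the other male TAC arrays in the mean level of the 10 genes became 1.677 without Egr1, 1.576 without Fos, 1.993 without Jun and 2.017 without Myc.

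Over the 6 comparisons, 16 of 66 differences of single probe sets changed sign under at least 1 alternative, in 33 of 1886 values. By comparison these were 1 of 11 in males, 3 in females, 1 averaged, 2 for the interaction, 7 for female minus male TAC and 2 for female minus male sham. Examples are Junb in males (-0.03) and Nr4a1 averaged (-0.07) with the Gapdh ratio, Ier2 in females (-0.11) with the replicate block, and the Junb interaction, -0.57 with 18S against 0.31. The Fos interaction was 0.14 without male TAC 5, against -0.89 with it. Without male TAC 5, female minus male TAC was 0.14 for Egr1, 0.45 for Fos, 0.31 for Btg2 (1416250_at) and 0.29 for Nr4a1, against -0.67, -0.59, -0.24 and -0.30 with it. The causes were not tested. A dim probe set such as that of Myc cannot be told from an unexpressed gene.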

Other observations

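The genes furthest above the other male TAC arrays on male TAC 5 were looked up after their values were seen. Of the 15 probe sets with the largest distance, 3 belonged to the 10 genes (Fos, Egr1 and Nr4a1), 4 to the immediate early genes Errfi1 (2 probe sets), Ccn1 and Zfp36, and 3 had no single symbol. The other 5 belonged to genes induced by interferon gamma. Gbp2, a guanylate-binding protein, lay 3.57 and 3.05 above on the log2 scale on its 2 probe sets, and Gbp7 lay 2.36 above. The chemokine Cxcl9 lay 2.84 above, and Iigp1, an immunity-related GTPase, 2.39 above. The values describe 1 array and have no test.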
